A study of Mus musculus with 4 samples.

Results

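The genes described here encode transforming growth factor beta 1 (TGF-beta 1), both chains of its receptor, the Smad proteins that carry the signal and the Ski repressors that hold it back. They were chosen by symbol, as 9 genes: Tgfb1, Tgfbr1, Tgfbr2, Smad2, Smad3, Smad4, Smad7, Ski and Skil. All 9 were listed among the 11883 genes of the authors' deposited table. RNA was sequenced from T helper 2 (Th2) cells of the lungs of C57BL/6 mice given papain, a protease that provokes allergic airway inflammation, on a chronic schedule. The cells were sorted as live and CD4-positive with T1/ST2, which binds interleukin-33, on the surface. One group, called control, was Gata3(fl/fl), whose Gata3 alleles Cre recombinase can cut, and the other, called Klrg1Cre, was Klrg1Cre Gata3(fl/fl), which carries a Cre named for Klrg1 as well. Each group had 2 samples. Both groups carried the floxed Gata3 alleles and both had received papain, and neither an unfloxed Klrg1Cre group nor an untreated group was part of the comparison. The effects of Cre, of Gata3 loss in Th2 cells and of a lack of group 2 innate lymphoid cells (ILC2) therefore cannot be told apart. The labels do not give the animals' age, nor whether each sample was a mouse of its own, so p-values measure only how far these samples differ, and that spread may be technical.

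TGF-beta is made as a latent complex and is released by integrins and proteases. It binds the type II receptor chain, TGFBR2, which then phosphorylates the type I chain, TGFBR1, and this kinase phosphorylates Smad2 and Smad3. Together with Smad4 these move to the nucleus, where they induce genes that include Itgae, the alpha chain of the integrin CD103, and, in negative feedback, Smad7 and Skil. In T cells the pathway favours regulatory T cells and tissue residence and restrains effector differentiation.

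The promoters of the receptor genes are shown because the receptor chains had opposite directions of difference and the widest gap in level, per length, of the 3 pairs of related genes compared here. RefSeq promoters (build GRCm38.p6) were matched for 5 of the 9 genes. The 250 bases before the start are printed 5′ to 3′ on the gene's strand. Tgfbr1 is at chr4:47352972-47353221 on the plus strand, the first of its starts in the table, and Tgfbr2 at chr9:116175364-116175613 on the minus strand. No annotated exon overlaps either window. Capitals mark the Smad motif CAGAC and the GC box, a motif that the factor Sp1 binds, spelled GGGCGG. Both were searched on both strands.
Tgfbr1: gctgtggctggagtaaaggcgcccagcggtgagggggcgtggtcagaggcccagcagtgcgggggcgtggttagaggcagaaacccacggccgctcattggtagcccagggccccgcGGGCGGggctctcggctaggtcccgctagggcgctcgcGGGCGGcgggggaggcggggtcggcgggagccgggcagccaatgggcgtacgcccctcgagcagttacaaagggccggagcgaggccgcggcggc
Tgfbr2: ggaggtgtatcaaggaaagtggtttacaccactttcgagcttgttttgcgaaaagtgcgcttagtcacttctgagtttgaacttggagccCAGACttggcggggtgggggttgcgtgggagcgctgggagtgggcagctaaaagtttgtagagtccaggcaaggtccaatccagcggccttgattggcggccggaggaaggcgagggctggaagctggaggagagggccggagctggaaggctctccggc
The Tgfbr1 window held 2 GC boxes, 0 Smad motifs, 29 CpG pairs and 74.8% G or C. The Tgfbr2 window held 1 Smad motif, 0 GC boxes, 12 CpG pairs and 58.4% G or C. Of 32851 windows of the same length, 42.2% held a Smad motif, 32.7% a GC box and 0.167% the palindromic Smad motif GTCTAGAC, which was in neither receptor window. The windows of Tgfb1, Ski and Smad3 held 5, 5 and 2 GC boxes and 0 Smad motifs. The other start of Tgfbr1 in the table, at chr4:47385966-47386215 on the plus strand, is not printed: its window held 1 Smad motif, 0 GC boxes, 3 CpG pairs and 52.8% G or C, the same motif counts as the Tgfbr2 window. The motif contrast between the receptor genes therefore depends on the start, and which start these cells use was not measured. These matches are descriptions of the letters and do not show binding.

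Values are in CPM, the reads of a gene scaled to the total reads of its library, and differences are Klrg1Cre relative to control. A gene is said to have changed only where the authors' p, adjusted over all 11883 genes, was below 0.05. By this rule 7 genes, or 0.0589% of the table, were called, and 0 of the 9 members were. The authors' unadjusted p was below 0.05 for 7.09% of genes, of which those with lower means were 3.37% and those with higher means 3.72% of the table. Of the 9 members 2 were below that threshold, Tgfbr1 and Skil, both with lower means. Lower means were found for 6 of the 9 members and for 49.4% of all genes. The median log2 ratio was -0.34 over the members and 0.01 over all genes.

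The Klrg1Cre libraries had 26019065 and 14564426 reads and the control libraries 33379572 and 31961572, as found from the steps of the means. Rn45s, the ribosomal RNA precursor, took 67.1% of Klrg1Cre reads and 51.4% of control reads, and the other listed genes 18.2% and 17.8%. Reads outside the listed genes made up the rest, 14.7% in Klrg1Cre and 30.8% in control. The totals behind CPM thus differed in make-up between the groups. Gata3 stood at 293.9 CPM in the Klrg1Cre mean against 221.4 CPM, which does not check the deletion, since exons outside the floxed part are still counted. Markers of T cells summed to 1700 CPM in Klrg1Cre and 1685 CPM in control over 13 listed genes. Reads of single libraries could be told for Tgfb1, Smad3 and Smad7. For the other 6 members the deposited means could not be split into whole reads, and no value per library or spread is given for them.

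**Figure D1:**
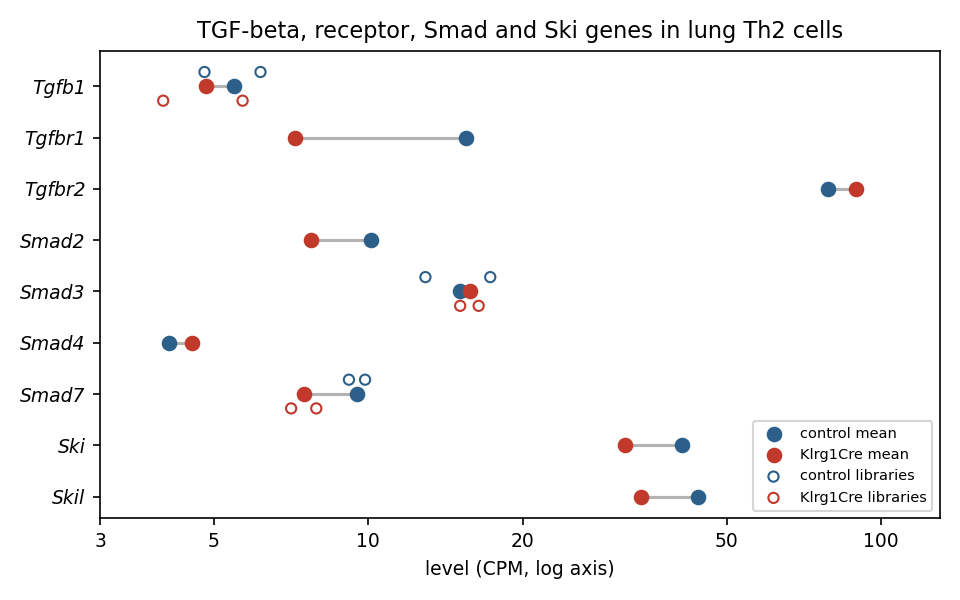
Levels of the 9 members in CPM on a log axis, with filled points for the authors' group means and open points for the libraries of Tgfb1, Smad3 and Smad7. The gap between the group means is widest for Tgfbr1, at 7.18 CPM in Klrg1Cre and 15.5 CPM in control, and the libraries of the groups overlap for Tgfb1 and Smad3 but not for Smad7. Among all genes with reads per library, 37.6% had groups apart in either direction.

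The ligand gene Tgfb1 stood near the middle of all listed genes in level, at percentile 47.8, and its level did not separate the groups. The Klrg1Cre libraries held 5.69 and 3.98 CPM, from 148 and 58 reads, and the control libraries 4.79 and 6.16 CPM, from 160 and 197 reads. The groups overlapped, since the larger Klrg1Cre library lay between the control libraries. The mean was 4.84 ± 1.21 CPM (SD, n = 2) in Klrg1Cre and 5.48 ± 0.969 CPM (SD, n = 2) in control, with the authors' adjusted p at 0.911. With limma on log2(CPM + 1) the difference was -0.16 with a 95% interval of -0.69 to 0.37, which leaves room for a moderate change either way.

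Tgfb3, which encodes another isoform of the ligand, was the one gene with an unadjusted p below 0.05 among the other ligands and antagonists of the superfamily, of which 7 of 21 were listed. It held 2.19 and 2.47 CPM in the Klrg1Cre libraries and 0.929 and 1.22 CPM in the control libraries. Both Klrg1Cre libraries lay above both control libraries, from 31 to 57 reads each. The ratio of the deposited means was 2.17 (adjusted p = 0.613 in the authors' table). Among all genes with reads per library, 19.3% had both Klrg1Cre libraries above both control libraries and 18.3% had both below. Of the 7 genes of this list, 3 had lower and 4 higher deposited means, with a median log2 ratio of 0.10.

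Tgfbr1, the type I receptor kinase, had the greatest fold difference of the 9 members, though not the greatest difference in CPM. It averaged 7.18 CPM in Klrg1Cre and 15.5 CPM in control, which is 2.16-fold lower. In the authors' table its unadjusted p was 0.000556, rank 34 of 11883, and its adjusted p 0.194, so it did not pass. Over the 6300 genes averaging 5 CPM or more, its adjusted p was 0.125. Its partner Tgfbr2, the type II chain that binds the ligand first, was the most abundant member, at 89.3 CPM in Klrg1Cre and 78.8 CPM in control. The ratio of the deposited means of Tgfbr2 was 1.13 (adjusted p = 0.839 in the authors' table), a difference in the other direction that did not pass either.

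Per kilobase of the longest protein-coding transcript, so that genes can be set beside each other, Tgfbr2 stood at 11.04 CPM per kb in Klrg1Cre and 9.74 in control. Tgfbr1 stood at 1.25 CPM per kb in Klrg1Cre and 2.69 in control. The Tgfbr2 level was thus 8.85 times that of Tgfbr1 in Klrg1Cre and 3.62 times in control. With the length of all exons of protein-coding transcripts these quotients were 9.74 and 3.99. Each quotient is of the means of 2 genes within a group, and its difference between groups was not tested.

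**Figure D2:**
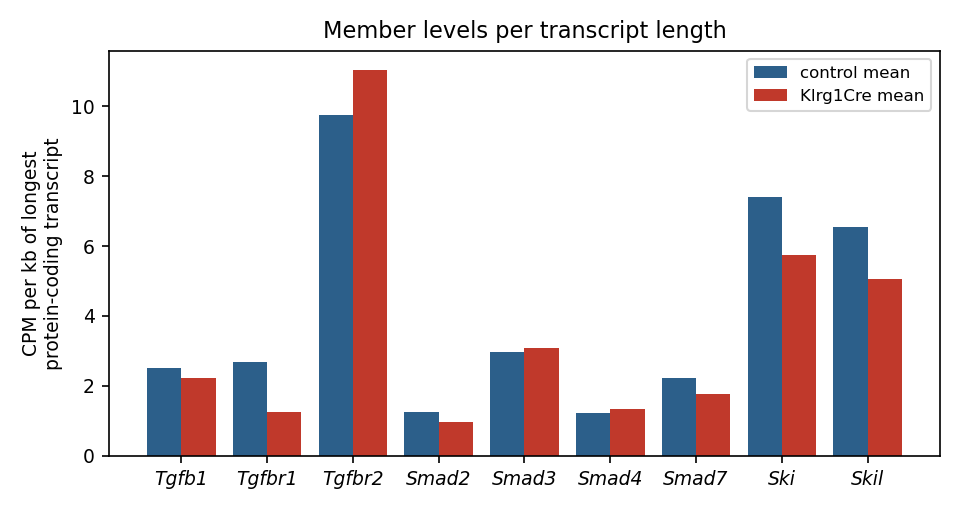
Bars give the authors' group means of the 9 members in CPM per kilobase of the longest protein-coding transcript, blue for control and red for Klrg1Cre, without error bars because the means carry no spread. Tgfbr2 is the highest in both groups, at 11.04 and 9.74, and Tgfbr1 is lower in Klrg1Cre than in control, at 1.25 and 2.69.

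Other receptors of the superfamily gave no call. Of 15 type I and type II receptors and co-receptors, 12 were listed, 0 had an unadjusted p below 0.05 in the authors' table, and 6 had lower and 6 higher means. Their median log2 ratio was -0.03. Tgfbr3, the co-receptor betaglycan, held 0.692 and 1.30 CPM in the Klrg1Cre libraries and 0.929 and 0.688 CPM in the control libraries, so the groups overlapped. No test compared Tgfbr1 with these receptors.

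Of the receptor-activated Smads, Smad3 was nearly level between the groups. The Klrg1Cre libraries held 15.1 and 16.4 CPM, from 393 and 239 reads, and the control libraries 17.3 and 12.9 CPM, from 577 and 413 reads. Both Klrg1Cre libraries lay between the control libraries. The means were 15.8 ± 0.923 CPM (SD, n = 2) and 15.1 ± 3.09 CPM (SD, n = 2), with an adjusted p of 0.954 in the authors' table, and the limma difference was 0.07 with a 95% interval of -0.34 to 0.48. Smad2, the other of the pair, averaged 7.74 CPM in Klrg1Cre and 10.1 CPM in control per the authors' table, 1.31-fold lower (adjusted p = 0.740). Per kilobase of the longest protein-coding transcript, the Smad3 level was 3.23 times that of Smad2 in Klrg1Cre and 2.37 times in control. Smad4, the shared partner of both, had deposited means of 4.54 CPM and 4.09 CPM, a ratio of 1.11 (adjusted p = 0.935).

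Smad7, the inhibitory Smad that blocks the receptor and is itself induced by the signal, held 7.92 and 7.07 CPM in the Klrg1Cre libraries, from 206 and 103 reads. The control libraries held 9.86 and 9.17 CPM, from 329 and 293 reads. Both Klrg1Cre libraries lay below both control libraries, which was so for 18.3% of all genes with reads per library. The means were 7.49 ± 0.598 CPM (SD, n = 2) in Klrg1Cre and 9.51 ± 0.487 CPM (SD, n = 2) in control, 1.27-fold lower, and the adjusted p was 0.764 in the authors' table. The limma difference was -0.31 on the log2(CPM + 1) scale, with a 95% interval of -0.72 to 0.11. Smad7 was the 1 of 3 members with reads per library whose groups did not overlap, against 37.6% of all such genes in either direction.

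Ski and Skil, which encode the repressors Ski and SnoN that bind Smads on DNA, had closely similar values. Ski averaged 31.7 CPM in Klrg1Cre and 40.8 CPM in control per the authors' table, 1.29-fold lower, with an unadjusted p of 0.0632 and an adjusted p of 0.716. Skil, a direct target of the pathway, averaged 34.0 CPM and 43.9 CPM there, also 1.29-fold lower, with an unadjusted p of 0.0250 and an adjusted p of 0.620. Per kilobase of the longest protein-coding transcript, the Skil level was 0.880 times that of Ski in Klrg1Cre and 0.884 times in control.

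**Figure D3:**
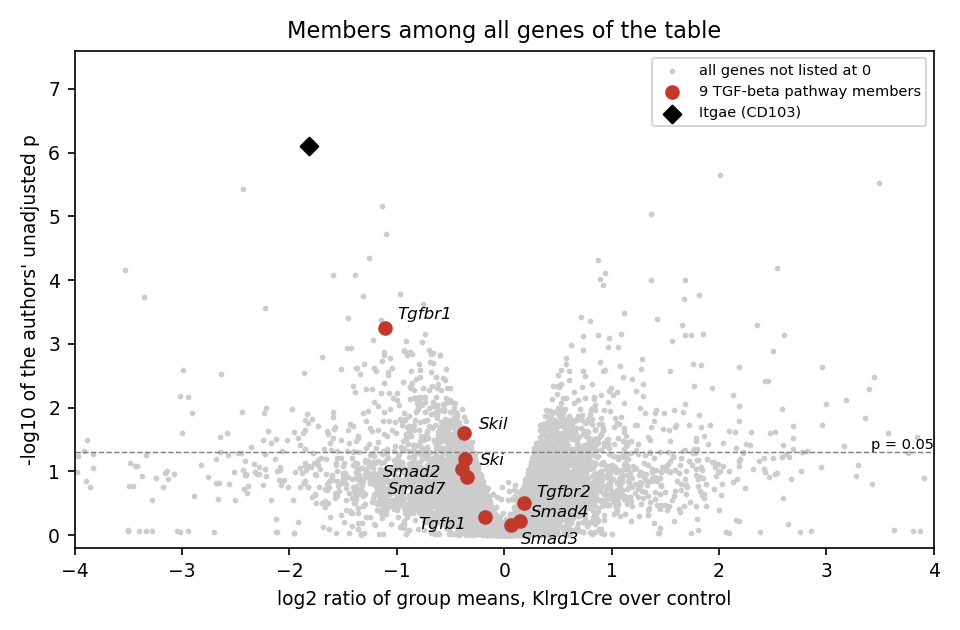
Each point is a gene, with the log2 ratio of the deposited means on the x axis and -log10 of the authors' unadjusted p on the y axis, and the dashed line marks p = 0.05. Red points are the 9 members, of which Tgfbr1 and Skil lie above the line, and the diamond is Itgae, while 17 genes with log2 ratios beyond 4 lie outside the axis and genes listed at 0 are left out.

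The genes that keep TGF-beta latent or release it contained both higher and lower values. Of 15 such genes 10 were listed, with 3 lower and 7 higher deposited means and a median log2 ratio of 0.09. Itgb8, the integrin chain that activates latent TGF-beta together with the chain encoded by Itgav, held 1.65 and 2.61 CPM in the Klrg1Cre libraries and 5.60 and 6.16 CPM in the control libraries. The Itgb8 groups were well apart, 2.76-fold between the deposited means, with an unadjusted p of 0.00116 and an adjusted p of 0.265 in the authors' table. Itgav itself held 6.92 and 6.11 CPM against 8.06 and 6.76 CPM in control, and its groups overlapped.

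Lrrc32, encoding the GARP protein that docks latent TGF-beta on regulatory T cells, held 3.46 and 6.25 CPM in the Klrg1Cre libraries and 8.54 and 11.9 CPM in the control libraries. The groups of Lrrc32 did not overlap, although the libraries of each differed widely, and its adjusted p in the authors' table was 0.448. Groups apart with Klrg1Cre below, as for Lrrc32 and Itgb8, were found for 18.3% of all genes with reads per library. Mmp9, a protease, held 4.73 and 5.08 CPM in the Klrg1Cre libraries and 2.91 and 2.25 CPM in the control libraries, with an adjusted p of 0.551.

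Itgb8 and Lrrc32 are themselves among the 12 markers of regulatory T cells used here, so both count in the values that follow. Most of these markers had lower means. Of 12 markers of regulatory T cells, all 12 were listed and 11 had lower means in Klrg1Cre. Of the 12, 10 had lower means with an unadjusted p under 0.05, against 3.37% of all genes. Of these markers 0 passed adjustment over all genes, and the median log2 ratio was -1.02. The marker lists were put together with earlier results of these data known, so their counts, sums and medians are descriptions. Their summed level was 375.8 CPM in Klrg1Cre and 593.7 CPM in control, and the defining factor Foxp3 stood at 50.6 and 104.6 CPM. The part of regulatory T cells in the differences of Tgfbr1, Skil, Smad7, Itgb8, Lrrc32 and Itgae was not tested. In sorted bulk samples such as these, fewer cells of a type and less RNA per cell cannot be told apart. Macrophage and monocyte markers summed to 1886 CPM in Klrg1Cre and 2681 CPM in control over 15 listed genes, of which 10 had lower means. Chil3 alone made up 1124 and 1932 CPM of these sums. Among the macrophage markers Marco was listed at 0 in control, and the part of these cells was not tested either. ILC2 markers summed to 816.8 CPM in Klrg1Cre and 796.9 CPM in control, but these close sums held opposite differences. Of the 13 listed, 6 had higher and 3 lower means with an unadjusted p under 0.05, against 3.72% and 3.37% of all genes. The median log2 ratio was 0.34. Gata3, the floxed gene, counts among the 6 and made up 293.9 CPM of the Klrg1Cre sum and 221.4 CPM of the control sum. Nmur1 stood at 7.73 against 2.40 CPM and Kit at 1.29 against 0.356 CPM, while Klrg1 stood at 4.19 against 48.4 CPM and Arg1 at 53.9 against 98.5 CPM. For CD8 and NK cells, 4 of 9 markers were listed, 2 lower and 2 higher, summing to 21.9 and 19.9 CPM. Of that sum Gzmb made up 18.4 and 15.9 CPM, while Gzma stood at 0.268 and 0.858 CPM. For B cells, 5 of 8 markers were listed, 3 lower and 2 higher, summing to 5.57 and 6.78 CPM, and Ms4a1 was listed at 0 in Klrg1Cre. The 2 listed of 8 eosinophil and mast cell markers differed in direction, Ccr3 at 2.89 against 5.58 CPM and Siglecf at 1.91 against 0.977 CPM. For epithelial cells, 6 of 9 markers were listed, 3 lower and 3 higher, summing to 16.4 and 16.5 CPM, with Epcam at 0.921 against 2.78 CPM and Scgb1a1 at 4.23 against 2.57 CPM. Both listed of 9 endothelial and fibroblast markers were higher, summing to 18.2 and 12.2 CPM. Nearly all of that sum was Pecam1, at 17.7 and 12.1 CPM, while Col1a1 stood at 0.537 and 0.150 CPM. None of the markers of these 6 cell types passed adjustment over all genes.

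**Figure D4:**
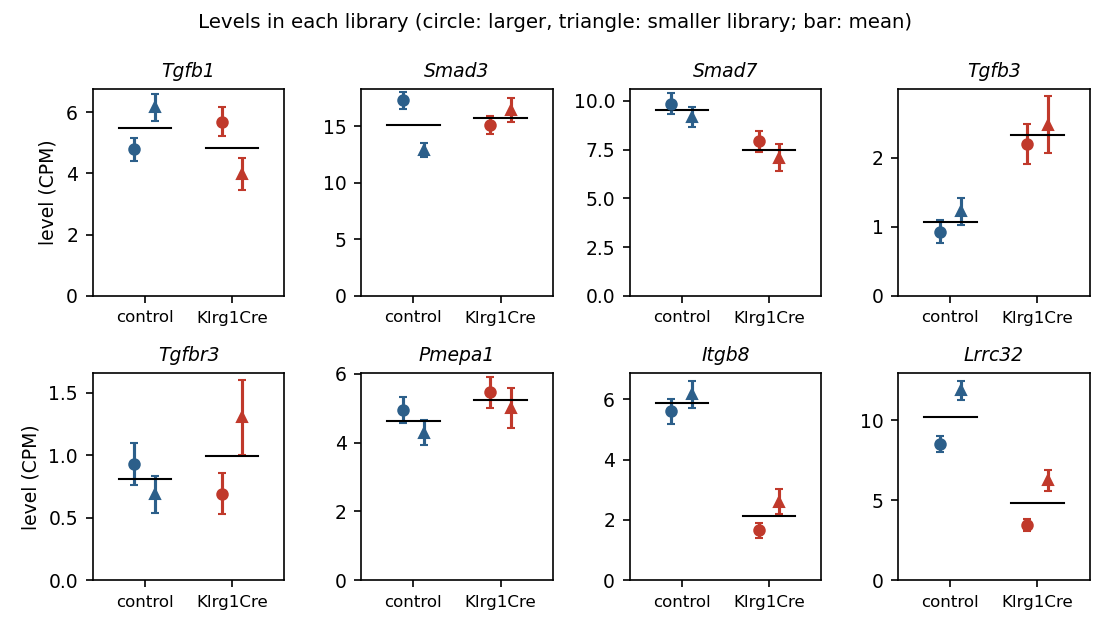
Levels in CPM in each library for 8 pathway genes with reads per library, circles for the larger and triangles for the smaller library of each group, black bars for group means, and error bars of 1 square root of the read count, which cover counting error only. Control and Klrg1Cre libraries overlap for Tgfb1, Smad3 and Tgfbr3, and are apart for Smad7, Tgfb3, Pmepa1, Itgb8 and Lrrc32. Among all genes with reads per library, 37.6% had groups apart in either direction. For Pmepa1 the nearest libraries were 5.01 CPM in Klrg1Cre and 4.94 CPM in control, from 73 and 165 reads, a gap within the error bars.

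Smad partners, corepressors and regulators of turnover gave no call. Of the other Smads and Smad partners, 18 of 21 were listed, 0 passed adjustment and 1, Strap, had an unadjusted p below 0.05 in the authors' table. Strap encodes a receptor-associated inhibitor of the signal. It held 18.2 and 17.3 CPM in the Klrg1Cre libraries and 26.4 and 22.0 CPM in the control libraries (adjusted p = 0.618). The Strap groups were apart with Klrg1Cre below, as for 18.3% of all genes with reads per library. Runx3, a transcription factor that cooperates with Smads at Itgae, averaged 20.8 CPM in Klrg1Cre and 16.2 CPM in control per the authors' table (adjusted p = 0.726). Of these 18 genes 7 had lower and 11 higher means.

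Of 12 further corepressor genes, all 12 were listed and 0 passed adjustment. Tgif1, which encodes a homeodomain repressor of Smad targets, averaged 11.7 CPM in Klrg1Cre and 16.7 CPM in control per the authors' table, 1.42-fold lower (unadjusted p = 0.0154, adjusted p = 0.596). Zeb2, a zinc finger repressor that binds Smads, was listed at 26.3 against 17.4 CPM (unadjusted p = 0.0182, adjusted p = 0.606), in the other direction from Tgif1, Ski and Skil. The median log2 ratio of these 12 genes was 0.07. Of 15 genes of receptor and Smad degradation, 0 had an unadjusted p below 0.05, with a median of 0.07. Of 12 genes of the branch through TAK1, p38 and RhoA, which does not use Smads, 0 did, with a median of -0.03.

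Genes known to be induced by TGF-beta differed in both directions. Of 34, a list that includes Skil, Smad7 and Ski, 31 were listed. Ski counts in this list, although only Smad7 and Skil are named above as induced in feedback. By the authors' adjusted p, Itgae was the 1 gene that fell, and 0 rose. An unadjusted p below 0.05 was found for 6 with lower and 2 with higher means, against 3.37% and 3.72% of all genes. This list too was put together with earlier results of these data known, so its counts and median are descriptions. The median log2 ratio was -0.11, with 18 lower and 13 higher means. Itgae stood at 42.8 CPM in Klrg1Cre and 150.9 CPM in control, 3.53-fold lower (adjusted p = 0.00949). Regulatory T cell markers were lower beside it, 10 of 12 at an unadjusted p under 0.05 with a median log2 ratio of -1.02, and the induced list shares Foxp3 and Ctla4 with them. Those markers too were listed with earlier results known, so these values are descriptions.

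Foxp3 was 2.07-fold lower (adjusted p = 0.321) in the authors' table. Cd101, an inhibitory receptor gene of tissue T cells, held 9.84 and 13.7 CPM in the Klrg1Cre libraries and 25.2 and 16.8 CPM in the control libraries (adjusted p = 0.473). Sik1, a kinase gene, held 2.58 and 3.64 CPM against 6.26 and 5.19 CPM in control (adjusted p = 0.577). Groups were apart for Cd101 and for Sik1, with Klrg1Cre below, as for 18.3% of all genes with reads per library. Pmepa1, a direct target that limits the signal by feedback, was on the other side, with 5.46 and 5.01 CPM in the Klrg1Cre libraries against 4.94 and 4.29 CPM (adjusted p = 0.904). Of these feedback genes, Smad7 and Skil had lower means and Pmepa1 a higher mean, none of them called. The unadjusted p of Pmepa1 was 0.482 in the authors' table, so these means do not settle whether feedback genes shared a direction.

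Of 23 genes known to be repressed by TGF-beta in T cells 21 were listed, and 15 of these had higher means in Klrg1Cre. Nkg7, encoding a protein of cytotoxic granules, rose in the authors' table, from 12.8 to 51.2 CPM (adjusted p = 0.0112), and 0 fell. An unadjusted p below 0.05 was found for 6 with higher and 2 with lower means, and the median log2 ratio was 0.41. Over all genes the shares at that threshold were 3.72% with higher and 3.37% with lower means, and 49.4% had lower means. Gata3, the floxed gene of this design, is on the list and counts among the 6, with an unadjusted p of 0.0115 in the authors' table. Il13 and Il5, effector cytokine genes of Th2 cells, had ratios of 1.96 and 2.43 with adjusted p of 0.265 and 0.289. Klrg1, whose locus names the Cre, went the other way at 4.19 against 48.4 CPM (adjusted p = 0.0701). The list was put together with earlier results of these data known, so its median is a description.

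**Figure D5:**
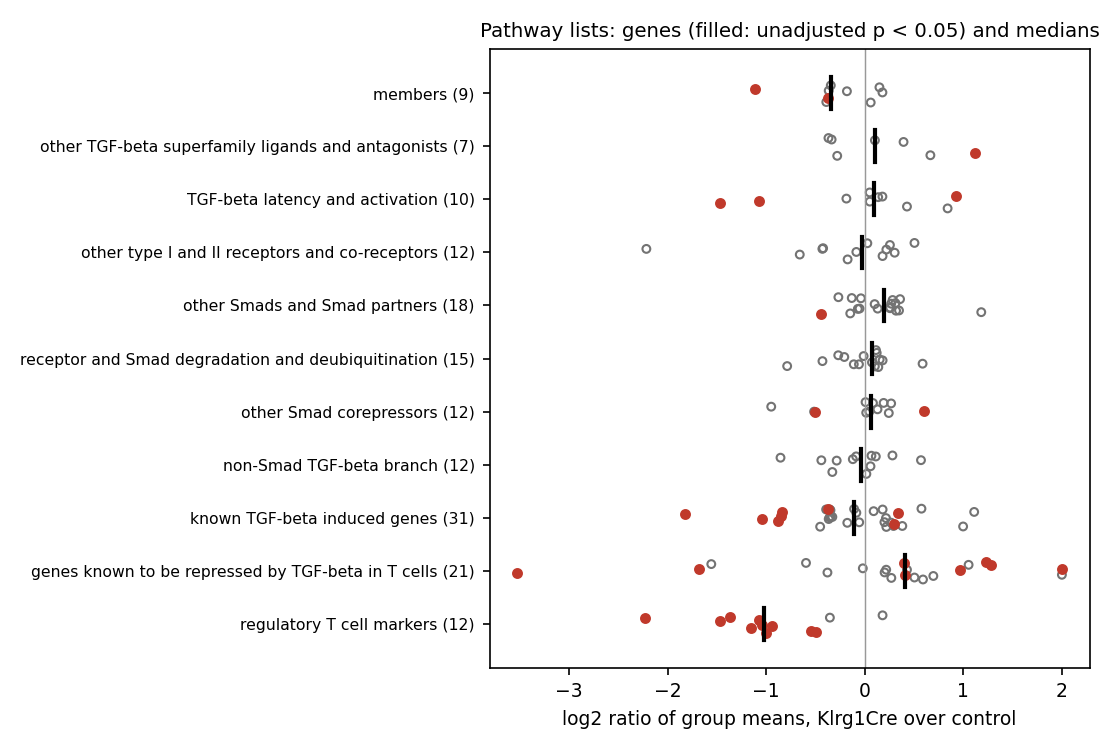
Log2 ratios of the deposited means for the genes of each list, with the number listed in brackets, filled where the unadjusted p was below 0.05 and with a black bar at the median. The 9 members have a median of -0.34, the genes known to be repressed by TGF-beta 0.41 and the markers of regulatory T cells -1.02, and some genes belong to more than one list.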

How the data were processed

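The data were 1 table of the authors' comparison, without a column for single samples. Per the submitters' processing notes, reads were handled with STAR and Partek on mouse build mm9, and no versions are given. Per the file headers the group means stand under WT and ILC2 deficient. WT was taken as control (Gata3(fl/fl)) and the other as Klrg1Cre, a link the labels do not state. The deposited means are in CPM with an offset of 0.0001 CPM. The deposited total per gene, a signal, was 2 times the sum of both means in 11883 rows and was left aside. The deposited ratio was their quotient in 11883 rows, and the deposited fold change, a score, is minus its inverse where below 1. The model behind the deposited p-values is not given in the sources used here, and the adjusted ones equalled a Benjamini-Hochberg adjustment over all genes.

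Means hold no spread, so the authors' p-values were used in place of edgeR, which had been planned only for counts. Library totals were found from genes read in 1 library, and a mean was split where 1 pair of whole reads matched it to within 1e-09 reads. This held for 5351 genes (45.0%) in both groups. Which library is which sample is unknown. limma 3.58.1 in R 4.3.3 with a trended variance was run on log2(CPM + 1) of the 4242 split genes averaging 1 CPM or more. The split recovered 100% of 2000 simulated means, but these were built with the same totals and formula, so the totals themselves were not checked. On simulated counts limma recovered 90% of 2-fold changes with 2 false calls. The spread between those simulated libraries was assumed and not taken from these samples. Transcript lengths and exons are from GENCODE M21 (GRCm38), another build than the authors', so lengths are approximate. No exon of another annotated gene overlapped the protein-coding exons of a member.

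The members and lists were chosen with earlier results of these data known. Named genes are the 9 members, up to 4 genes per pathway list with an unadjusted p below 0.05 in order of p, and Itgae, Tgfbr3, Pmepa1, Runx3, Lrrc32, Itgb8, Itgav, Smad6 and Tgif1. Smad6 was not listed. Rn45s, Gata3 and single markers of other cell types are named for the make-up of the libraries, chosen after their values were seen. Alternatives were filters at 1 and 5 CPM, pseudocounts of 1 and 5 CPM, 2 scalings, limma, leaving out each library and, added after seeing the data, a second length rule.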

Additional observations from a re-analysis of the deposited data

How the results depend on the processing

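Leaving out a library, possible for Tgfb1, Smad3 and Smad7, was the alternative that could move both direction and p: of its 12 values 9 kept their direction and 0 passed the adjusted p threshold. The filters on low values, with 17 values, leave the ratio as it is and could move only the adjusted p, which was lowest at 0.125, for Tgfbr1 over genes averaging 5 CPM or more. The scalings and pseudocounts keep the deposited p, and a pseudocount cannot turn a direction; the 18 values under a scaling kept theirs. The 3 values that turned direction did so without 1 library: the log2 ratio of Tgfb1 became 0.054 when the smaller Klrg1Cre library was left out and 0.013 when the smaller control library was, and that of Smad3 became -0.13 without the smaller control library. These directions are of CPM ratios, while the adjusted p came from limma on log2(CPM + 1). By limma the Tgfb1 difference without the smaller control library was -0.005, which did not turn. Over the 4 libraries left out in turn, the log2 ratio ranged from -0.46 to 0.05 for Tgfb1, from -0.13 to 0.29 for Smad3 and from -0.43 to -0.26 for Smad7. Among the 9 values counted as keeping their direction, that of Smad3 without the smaller Klrg1Cre library was 4.0e-05, which is level. With a pseudocount of 5 CPM the log2 ratio of Tgfbr1 was -0.75 against -1.11, which follows from the pseudocount. Rescaling to the listed genes other than Rn45s, which also left out the reads outside the listed genes, shifted every log2 ratio by -0.03. Those outside reads were 14.7% of Klrg1Cre reads and 30.8% of control reads. A rescaling that left out Rn45s alone was not run, so the 18 values under a scaling do not cover it. The number of genes called over the table was 7, also among those averaging 1 CPM or more, and 16 among those averaging 5 CPM or more, where fewer genes were adjusted for. Among the 4242 genes with reads per library that averaged 1 CPM or more, the authors' adjusted p called 1 and limma 7, where limma adjusts over these genes alone. With limma and 1 library left out the number called ranged from 0 (without the larger control library, where 262 genes had an unadjusted p below 0.05) to 64 (without the smaller Klrg1Cre library), and the single library left in its group is assumed to vary like the other group. No paired analysis was possible because the deposited columns are group means that carry no replicate number. For Tgfbr1, Tgfbr2, Smad2, Smad4, Ski and Skil no library could be left out, so whether 1 library set their means is unknown.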
